A study of Homo sapiens with 6 samples.

Results

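Transcripts of the annexins and of the S100 proteins, families that bind calcium and, in the case of annexins, membranes, were examined in NCI-H295A cells after 8-Br-cAMP. The members are the probe sets whose single platform gene symbol is an annexin (ANXA and a number) or an S100 gene. Where a gene has several probe sets, 1 was chosen by its signal, as the one with the highest mean log2 value over the 6 arrays. This gave 28 genes, 11 annexins and 17 S100 genes, of 11963 genes with such a probe set. Probe sets were thus selected on mean signal, and the level of a member is a description with no test.

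The treated group was 3 plates kept for 18 h with 1 mM 8-Br-cAMP, and the control group was 3 plates kept without it, all in the same serum-poor medium with insulin and selenium. NCI-H295A is an established line from a human adrenal cortex carcinoma that still makes steroids. The agent 8-Br-cAMP is an analogue of cAMP, the second messenger of the pituitary hormone ACTH, that crosses membranes. Every array comes from this single line. The labels do not say whether plates were grown from separate cultures, so the errors below may be technical.

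Annexins bind acidic membrane phospholipids when calcium rises, and serve in membrane repair, vesicle traffic and the ordering of the cell surface. S100 proteins are small EF-hand proteins that open a hydrophobic face on binding calcium and then dock on partners, several annexins among them. The classic pairs are ANXA2 with S100A10, and ANXA1 with S100A11. In adrenal cells calcium acts beside cAMP in the control of steroid output. ANXA1 is known as a glucocorticoid-induced protein of the pituitary and of leukocytes.

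The starting regions of ANXA4 and ANXA6 are shown first. They are the annexins called lower in the fit that pairs same-numbered plates, and neither was called without the pairing (below). Each runs from 250 bases before to 50 bases after a RefSeq start (GRCh38.p14, 300 bases, 5′ to 3′ on the gene's strand), and RefSeq lists several starts for both genes. ANXA4 lies on the plus strand of chromosome 2, at chr2:69643558-69643857 and chr2:69741884-69742183. ANXA6 lies on the minus strand of chromosome 5, at chr5:151157730-151158029 and chr5:151141635-151141934. G and C made up 78% and 72% of the ANXA4 windows, and 66.3% and 56.3% of the ANXA6 windows.
ANXA4 first window: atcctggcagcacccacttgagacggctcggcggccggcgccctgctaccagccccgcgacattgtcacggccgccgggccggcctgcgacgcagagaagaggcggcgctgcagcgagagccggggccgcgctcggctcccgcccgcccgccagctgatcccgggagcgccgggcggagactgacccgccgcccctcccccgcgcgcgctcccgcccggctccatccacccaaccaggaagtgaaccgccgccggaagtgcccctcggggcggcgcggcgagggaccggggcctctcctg
ANXA4 second window: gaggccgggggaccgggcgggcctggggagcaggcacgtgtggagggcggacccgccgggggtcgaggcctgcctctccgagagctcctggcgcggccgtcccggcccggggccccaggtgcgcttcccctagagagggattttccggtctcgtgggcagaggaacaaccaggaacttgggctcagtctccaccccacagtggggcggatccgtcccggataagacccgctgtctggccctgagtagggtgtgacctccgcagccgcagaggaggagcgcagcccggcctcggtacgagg
ANXA6 first window: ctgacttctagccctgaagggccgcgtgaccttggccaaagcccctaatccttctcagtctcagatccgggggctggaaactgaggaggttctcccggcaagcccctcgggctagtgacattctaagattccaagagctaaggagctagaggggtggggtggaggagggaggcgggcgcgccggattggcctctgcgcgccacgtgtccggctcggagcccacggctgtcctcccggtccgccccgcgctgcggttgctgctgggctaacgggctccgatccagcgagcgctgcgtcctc
ANXA6 second window: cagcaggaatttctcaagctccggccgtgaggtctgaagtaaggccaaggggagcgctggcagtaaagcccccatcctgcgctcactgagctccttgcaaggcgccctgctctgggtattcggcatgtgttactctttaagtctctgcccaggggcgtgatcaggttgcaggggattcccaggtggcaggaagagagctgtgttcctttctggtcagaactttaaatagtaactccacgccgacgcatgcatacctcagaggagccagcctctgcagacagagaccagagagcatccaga

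These windows were searched on both strands for the cAMP response element TGACGTCA, the shorter TGACG, which lies within it, and the AP-1 element TGANTCA, the binding letters of the FOS and JUN proteins. None of the 3 was found in the 4 windows of ANXA4 and ANXA6, which says only that these letters are not there. RefSeq windows were matched for 26 of the 28 members. The full element was in 0 of the 26 members and in 1.85% of 35116 windows of all genes. The shorter element was in 6 of the 26 (24.6% of all windows) and the AP-1 element in 5 of the 26 (7.71% of all windows), and several members have more than 1 window. Among members with signals above the filter level, the matches lie in the stretches below, shown with 15 bases on either side and the element in capitals. All of these genes are on the minus strand.
ANXA11 upstream match, chr10:80205954-80205988: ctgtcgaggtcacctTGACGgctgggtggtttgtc
ANXA11 downstream match, chr10:80205499-80205533: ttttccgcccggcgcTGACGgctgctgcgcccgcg
ANXA7, chr10:73414013-73414047: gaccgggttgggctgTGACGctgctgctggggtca
S100A13, chr1:153627321-153627355: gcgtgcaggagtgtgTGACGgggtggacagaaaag
ANXA2, chr15:60398092-60398128: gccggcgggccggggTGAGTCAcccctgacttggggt

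Most members gave dim signals in these cells. Probe sets were kept for testing where their mean log2 signal exceeded the 40th percentile of all probe sets, a signal of 45.5. Of the 11 annexins 6 were kept (ANXA2, ANXA4, ANXA5, ANXA6, ANXA7 and ANXA11), and of the 17 S100 genes 2 (S100A13 and S100A14). That is 28.6% of the members, against 66.3% of all genes. Signals of different probe sets do not rank transcript amounts, so the order of the members is one of probe set brightness only.

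**Figure D1:**
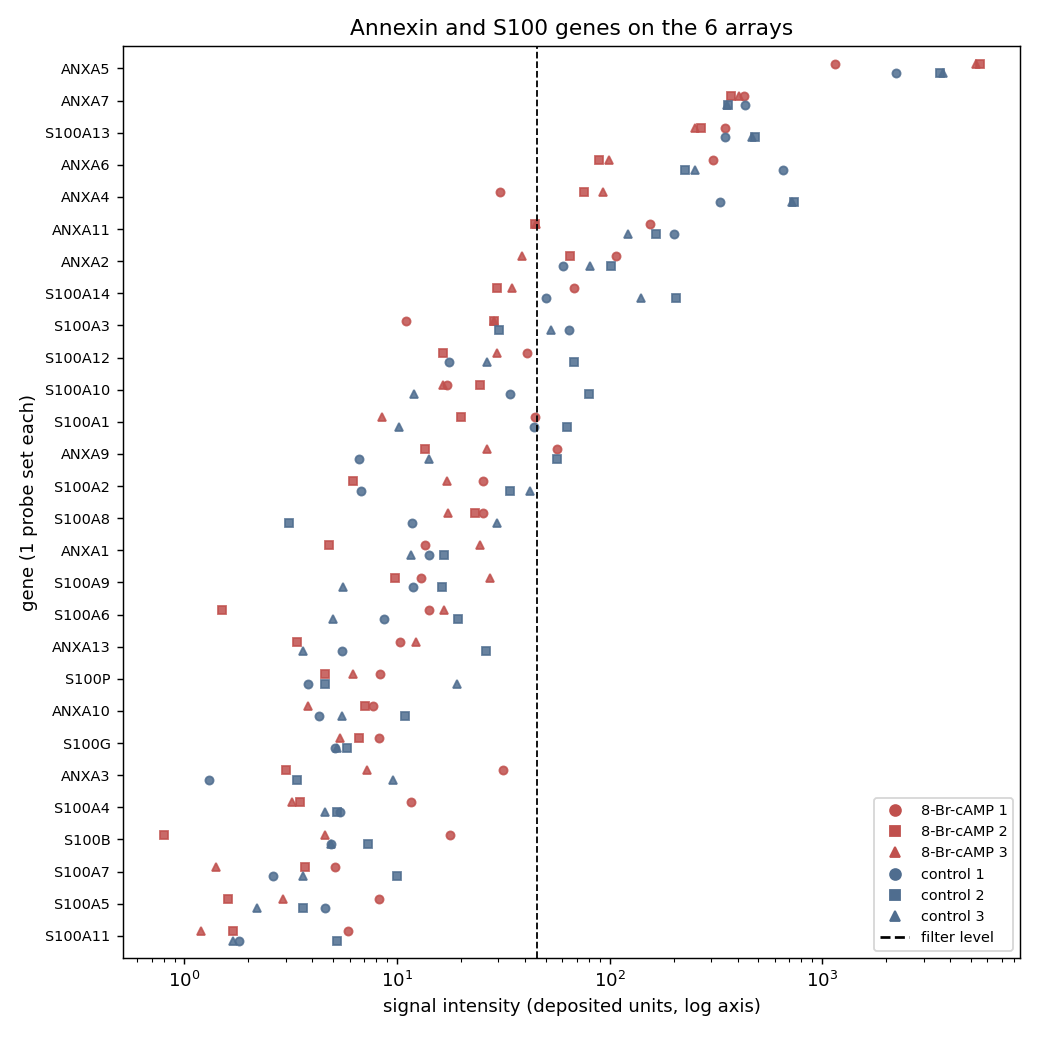
Signal intensity (log axis, deposited units) of the chosen probe set of each of the 28 members on the 3 8-Br-cAMP arrays (red, upper row of each gene) and the 3 control arrays (blue, lower row), with marker shape giving the sample number and the dashed line the filter level of 45.5. ANXA5 lies far to the right, and 20 of the 28 genes have a mean below the line.

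Arrays numbered 1 stood apart in both groups, which touches most values below. The 3′/5′ signal ratio of the actin control, a sign of RNA integrity, was 38.8 on 8-Br-cAMP 1 and 5.72 on control 1, against 1.93 to 2.41 on the other 4 arrays. Across kept probe sets 8-Br-cAMP 1 correlated with 8-Br-cAMP 2 at 0.776, while 8-Br-cAMP 2 and 3 correlated at 0.98. Adrenocortical identity was clear, with 12 of 12 measured markers kept, steroidogenic genes such as CYP17A1 and STAR among them. Markers of other cell types were looked at as whole lists, in which 3 of 9 measured genes were kept for leukocytes (ITGAM, FCER1G and CD3E), 2 of 6 for endothelium (PECAM1 and VWF), 3 of 7 for fibroblasts (COL1A1, DCN and THY1), 1 of 6 for chromaffin cells (CHGB), 0 of 3 for Schwann cells and 2 of 5 for keratinocytes (KRT1 and KRT10). The summed signal of the endothelial list was higher after 8-Br-cAMP without overlap, at 310 to 428 on treated arrays and 197 to 239 on control arrays. Most of the treated sum was VWF, the only gene of that list to be higher without overlap. VWF, a clotting factor of endothelium and platelets, had 292.3, 224.5 and 289.2 on the 8-Br-cAMP arrays, against 13.2, 17.8 and 123.8 on the control arrays. VWF alone of these 6 lists was under the threshold in the paired fit (log2 difference 3.12, SE 0.60, limma's paired adjusted p = 0.0493, and 0.212 without the block). It was kept through the treated arrays alone, so its values are a description and no result is drawn from them. TEK, an endothelial receptor below the filter level, went the other way without overlap, with 11.3, 20.7 and 14.2 on the 8-Br-cAMP arrays, against 106, 60.7 and 68.1 on the control arrays. Over all kept genes, treated arrays lay above all controls in 6.32% and below all controls in 13.6%. The endothelial cadherin CDH5 never exceeded 11.5.

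The other summed lists overlapped between groups. They ran from 248 to 488 on treated and 263 to 395 on control arrays for leukocytes, 297 to 432 and 251 to 518 for fibroblasts, 200 to 305 and 198 to 353 for chromaffin cells, 35 to 68 and 60 to 117 for Schwann cells, and 1010 to 1455 and 972 to 1500 for keratinocytes, most of that last sum being KRT10. Of the markers set as defining, PTPRC, CD14 and CSF1R (leukocytes), TH and DBH (chromaffin cells), SOX10 (Schwann cells) and KRT5 and KRT14 (keratinocytes) were below the filter level, as were CDH5 and PDGFRB, whereas PECAM1, COL1A1 and DCN were above it. The part of other cells or of RNA quality in the results was not tested.

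The comparison was fitted in 2 ways on the whole table of 13329 kept probe sets, with p-values adjusted over all of them by the Benjamini-Hochberg method. limma without a block called 0 probe sets at an adjusted p under 0.05 (smallest 0.0511), while 1474 had an unadjusted p under 0.05. The paired fit, limma with a replicate block for the numbers 1 to 3, called 428. Pairing by number is not stated in the labels, and the check of it could not tell numbers 2 and 3 apart (below). At 1 probe set per gene the paired fit called 1.96% of 7927 kept genes lower and 1.73% higher after 8-Br-cAMP, against 0% in either direction without the block. Among the 6 kept annexins the paired fit called 2 lower, ANXA4 and ANXA6, and 0 higher. Of the 2 kept S100 genes it called 0. The median log2 difference was -0.76 over the 6 kept annexins and -0.14 over all kept genes. In whole-plate RNA, fewer cells expressing a gene and less of its RNA per cell cannot be told apart.

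ANXA4 (gene ID 307) is a calcium-dependent membrane-binding protein of secretory and epithelial cells that assembles into sheets on the inner face of membranes. On its chosen probe set the signal was 30.6, 76.2 and 92.8 on 8-Br-cAMP arrays 1 to 3, against 330.5, 737.7 and 720 on control arrays 1 to 3. Every treated array lay below every control array, and the lowest control signal was on the number 1 array, as was the lowest treated one. Treated arrays lay below all controls in 13.6% of kept genes and above all controls in 6.32%, and among the kept members ANXA4 alone showed either.

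On the log2 scale ANXA4 averaged 5.91 ± 0.85 after 8-Br-cAMP and 9.13 ± 0.66 in controls (SD, n = 3 each), 9.33-fold lower. The log2 difference was -3.22 (SE 0.23, 95% interval -3.77 to -2.67) in the paired fit, with limma's adjusted p = 0.00679. Without the block the adjusted p of the same difference was 0.0948. In size of mean fall ANXA4 was number 7 among the 7927 kept genes. By pair, the treated signal was 10.8-fold, 9.68-fold and 7.76-fold lower in pairs 1, 2 and 3. The lowest treated signal, 30.6, was under the filter level of 45.5, so the size of the fall is uncertain. With a pseudocount of 16 the log2 difference was -2.89.

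Another probe set for ANXA4 read the same way. Its signal was 67.6, 54.5 and 32.8 on the 8-Br-cAMP arrays, against 346.8, 428.3 and 380.4 on the control arrays. Here too no treated array reached a control array, and controls lay close together. The log2 difference was -2.96 (SE 0.30), with limma's adjusted p = 0.0109 in the paired fit and 0.0511 without the block. The order of the pairs was the reverse of that on the first probe set, at -2.36, -2.97 and -3.54 for pairs 1, 2 and 3. With the 2 probe sets averaged, ANXA4 passed without the block as well (log2 difference -3.09, adjusted p = 0.0257).

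ANXA6 (gene ID 309) carries the annexin core in duplicate and is known for its ties to late endosomes and to cholesterol movement inside cells. The signal of ANXA6 was 307, 89.2 and 99.2 on 8-Br-cAMP arrays 1 to 3, against 655, 227.3 and 252.4 on control arrays 1 to 3. The groups overlapped, because the number 1 array of each group was brighter than its fellows, by 3.26-fold in treated and by 2.73-fold in control plates. Within each pair the treated array was lower, by 2.13-fold, 2.55-fold and 2.54-fold.

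The log2 difference of ANXA6 was -1.26 (SE 0.21, 95% interval -1.78 to -0.75), with limma's adjusted p = 0.0366 in the paired fit. Without the block the difference had an SE of 0.60 and an adjusted p of 0.51. Its mean log2 signal was 7.12 ± 0.99 after 8-Br-cAMP and 8.39 ± 0.84 in controls (SD, n = 3 each). The call was less firm than that of ANXA4, since it was lost in 3 of 9 other processing settings combined with the block and when pair 2 or pair 3 was left out (adjusted p = 0.111 and 0.177).

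**Figure D2:**
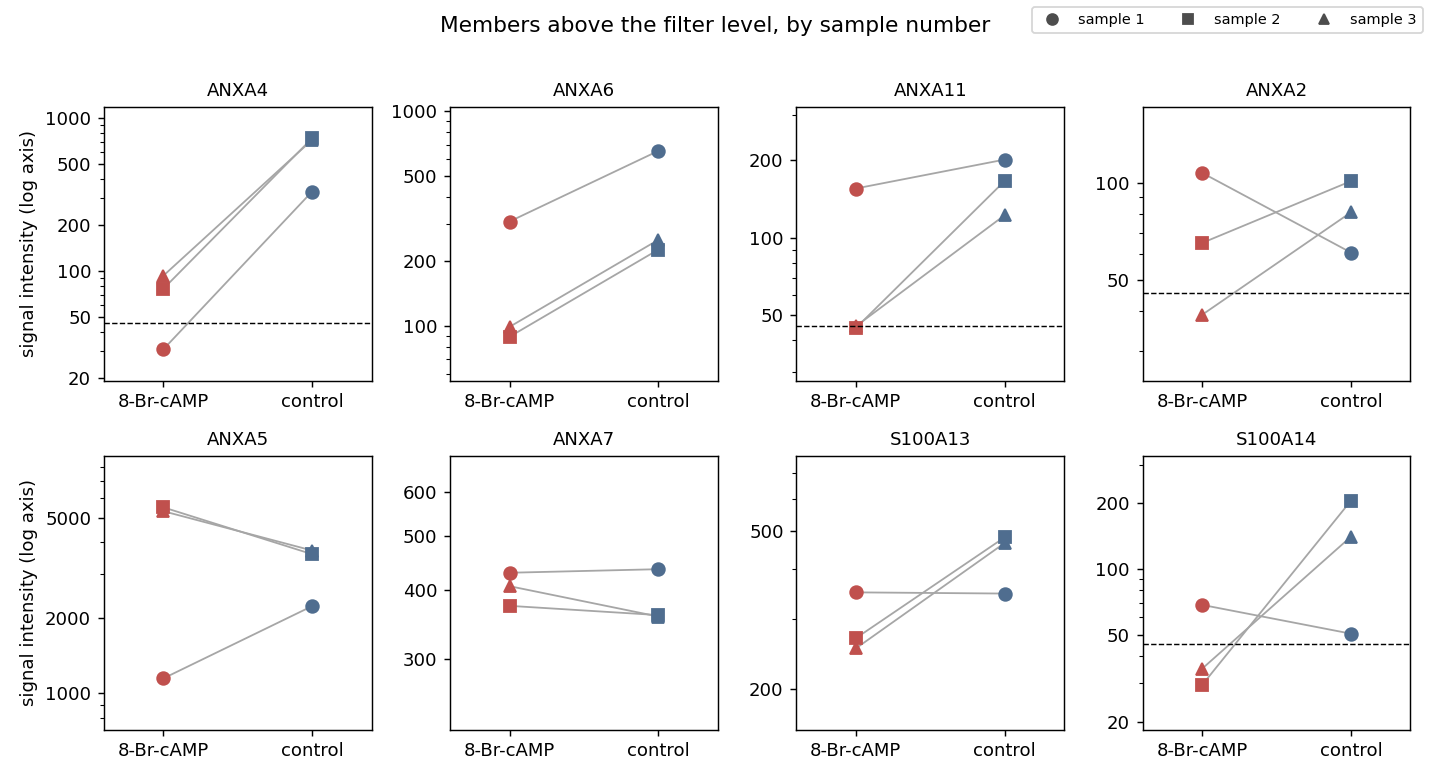
Signal intensity (log axes that differ between panels) of the 8 members above the filter level, with 8-Br-cAMP arrays left, control arrays right, marker shape for the sample number, grey lines joining same-numbered arrays and a dashed line at the filter level. In ANXA4 and ANXA6 the 3 lines run nearly parallel, while in ANXA2, ANXA5 and S100A14 the line of sample 1 slopes against the other two.

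ANXA11, an annexin that tethers RNA granules to lysosomes and binds the calcium sensor PDCD6, was lower in all 3 pairs but did not pass. Its signal was 155.4, 44.6 and 45.3 on the 8-Br-cAMP arrays, against 201.3, 166.3 and 122.4 on the control arrays. Treated arrays 2 and 3 lay below every control, and treated array 1 did not. The log2 difference was -1.24 (95% interval -2.09 to -0.38, limma's paired adjusted p = 0.121), made up of -0.37, -1.90 and -1.43 in pairs 1, 2 and 3. A dimmer probe set for ANXA11 had 62.2, 6.6 and 14.2 on 8-Br-cAMP arrays, against 50.2, 82 and 25.2 on controls, so treated arrays 2 and 3 were again lowest.

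ANXA5, the phosphatidylserine binder used to stain dying cells, had the brightest probe set of the members. Its signal was 1146.2, 5514.6 and 5322.1 on the 8-Br-cAMP arrays, against 2226.5, 3585.5 and 3708.1 on the control arrays. The number 1 array was the lowest of each group, by 4.73-fold against the mean of the other 2 in treated plates and by 1.64-fold in controls. Pair 1 differed by -0.96 on the log2 scale, and pairs 2 and 3 by 0.62 and 0.52. The mean difference was 0.06 (95% interval -0.72 to 0.84, limma's paired adjusted p = 0.94).

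ANXA7, or synexin, was first described in adrenal chromaffin cells as a granule-fusing protein. Its brightest probe set had 429.6, 374.4 and 406.3 on the 8-Br-cAMP arrays, against 436, 360.3 and 358.1 on the control arrays. The groups overlapped and varied little, with an SD of 0.10 after 8-Br-cAMP and 0.16 in controls on the log2 scale. The difference was 0.07 (95% interval -0.40 to 0.55, limma's paired adjusted p = 0.871). A dimmer ANXA7 probe set differed by -0.28 (-0.82 to 0.27), opposite in sign and also not past the threshold.

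ANXA2 forms a tetramer with S100A10 that links membranes to actin. Its chosen probe set had 107.3, 65 and 38.9 on the 8-Br-cAMP arrays, against 60.7, 101.1 and 80.9 on the control arrays. Treated arrays spanned the controls, with the number 1 array the highest treated and the lowest control. The log2 difference was -0.29 (95% interval -1.35 to 0.77, limma's paired adjusted p = 0.751). A near-tied probe set, at a mean log2 signal of 6.12 against 6.16, differed by -0.02. Another, below the filter, had 19.5, 44 and 15.4 on the 8-Br-cAMP arrays, against 30.6, 81.1 and 62.4 on the control arrays. It was lower in all 3 pairs, though its groups overlapped. Names of all 3 ANXA2 probe sets carry the _x mark that Affymetrix gives to probe sets able to bind related sequences, and ANXA2 has several pseudogenes, so these values are uncertain.

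The remaining annexins were dim throughout. ANXA1, ANXA3, ANXA9, ANXA10 and ANXA13 had signals between 1.3 and 56.4. Of these, ANXA9 alone passed the filter level on any array, at 56.3 on 8-Br-cAMP 1 and 56.4 on control 2. ANXA1, the glucocorticoid-induced member, ran from 4.8 to 24.5.

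S100A13, a protein that helps leaderless growth factors such as FGF1 leave the cell, had the brightest S100 probe set. Its signal was 350.3, 268.6 and 253.2 on the 8-Br-cAMP arrays, against 347.9, 481.8 and 466.2 on the control arrays. The number 1 arrays were almost level, and treated arrays 2 and 3 were below all controls. The log2 difference was -0.57 (95% interval -1.18 to 0.04, limma's paired adjusted p = 0.257), from 0.01, -0.84 and -0.88 in pairs 1, 2 and 3. A dimmer probe set for it differed by -0.21 (-1.14 to 0.72).

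S100A14, an S100 gene of epithelia, spread more widely. Its signal was 68.4, 29.4 and 34.9 on the 8-Br-cAMP arrays, against 50.5, 204.9 and 140.3 on the control arrays. Treated arrays 2 and 3 lay under the filter level and under every control, while treated array 1 was above control 1. Pairs 1, 2 and 3 differed by 0.44, -2.80 and -2.01, and the mean of -1.46 (95% interval -2.95 to 0.04) had limma's paired adjusted p = 0.244. S100A14 passed the filter through the control arrays alone, since its mean log2 signal was 5.37 after 8-Br-cAMP and 6.82 in controls against a filter level of 5.51. A probe set kept in that way had to differ, so its values are a description here and in the fits below.

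S100A3, a protein of the hair cuticle, was the next brightest and lay below the filter, so it entered no main test. Its signal was 11, 28.6 and 28.5 on the 8-Br-cAMP arrays, against 64.8, 30.1 and 53.3 on the control arrays. The groups did not overlap, and 4 of the 6 signals lay under the filter level. In fits without a filter its log2 difference was -1.18 (95% interval -2.60 to 0.24), with limma's adjusted p of 0.677 without the block and 0.444 with it.

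**Figure D3:**
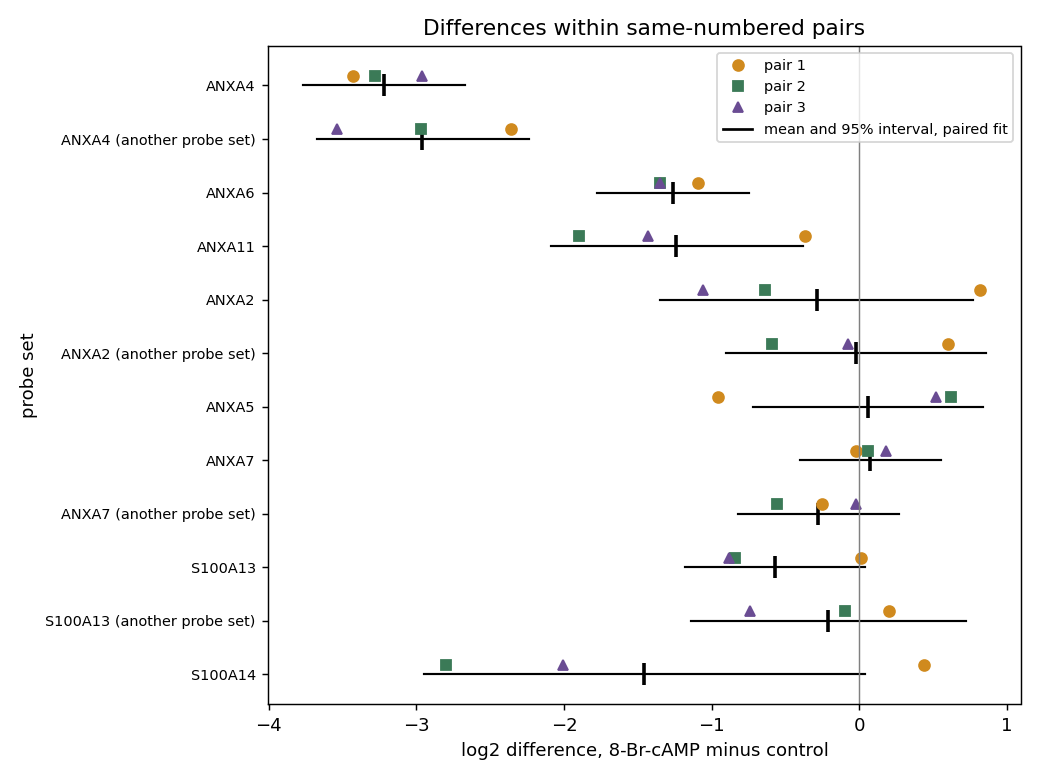
Log2 difference, 8-Br-cAMP minus control, of each kept member probe set in pairs 1, 2 and 3 (circle, square, triangle), with the mean (tick) and its 95% interval from the paired fit (line). Intervals of both ANXA4 probe sets and of ANXA6 and ANXA11 lie left of 0. Pair 1 stands well to the right of pairs 2 and 3 for ANXA11, S100A14 and the chosen probe sets of ANXA2 and S100A13, and well to the left for ANXA5.

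The other 14 S100 genes had signals from 0.8 to 79.7. They include S100A10 and S100A11, partners of ANXA2 and ANXA1. S100A10 had 17.2, 24.7 and 16.5 on the 8-Br-cAMP arrays, against 34.1, 79.7 and 12 on the control arrays, and S100A11 never exceeded 5.9. S100A4 and S100A6, raised in many tumours, reached 11.7 and 19.3. S100A8, S100A9 and S100A12, the neutrophil members, reached 29.7, 27.4 and 68.2, and S100B, a marker of glia, reached 17.7. Of all 20 dim members, 8 had their highest signal on control 2 and 6 on 8-Br-cAMP 1. These arrays also had the highest median signals over all probe sets, at 94.6 and 83.3, with control 1 close at 82.9. The same count was not made over all dim genes, so whether it is particular to the members was not tested. Without a filter 0 of these 20 passed limma with or without the block, and 0 had an unadjusted p under 0.05 in either fit.

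Leaving out both number 1 arrays changed several calls. That fit of 4 arrays rests on arrays 2 and 3 of each group, which are closely alike, and it called 20.5% of kept genes lower and 12.8% higher, so its counts must be read against these shares. It called 3 annexins lower (ANXA4, ANXA6 and ANXA11), 1 higher (ANXA5) and S100A13 lower. The log2 differences were -3.12 for ANXA4, -1.35 for ANXA6, -1.67 for ANXA11 and 0.57 for ANXA5 (limma's adjusted p = 1.41e-05, 0.00153, 0.00404 and 0.00314). S100A13 differed by -0.86 (limma's adjusted p = 0.00227). S100A14, kept through its controls alone, differed by -2.40. ANXA2 (-0.85, adjusted p = 0.117) and ANXA7 (0.12, adjusted p = 0.52) did not pass. The sizes for ANXA4 and ANXA6 moved little from those over all arrays, whereas ANXA5 moved from 0.06.

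**Figure D4:**
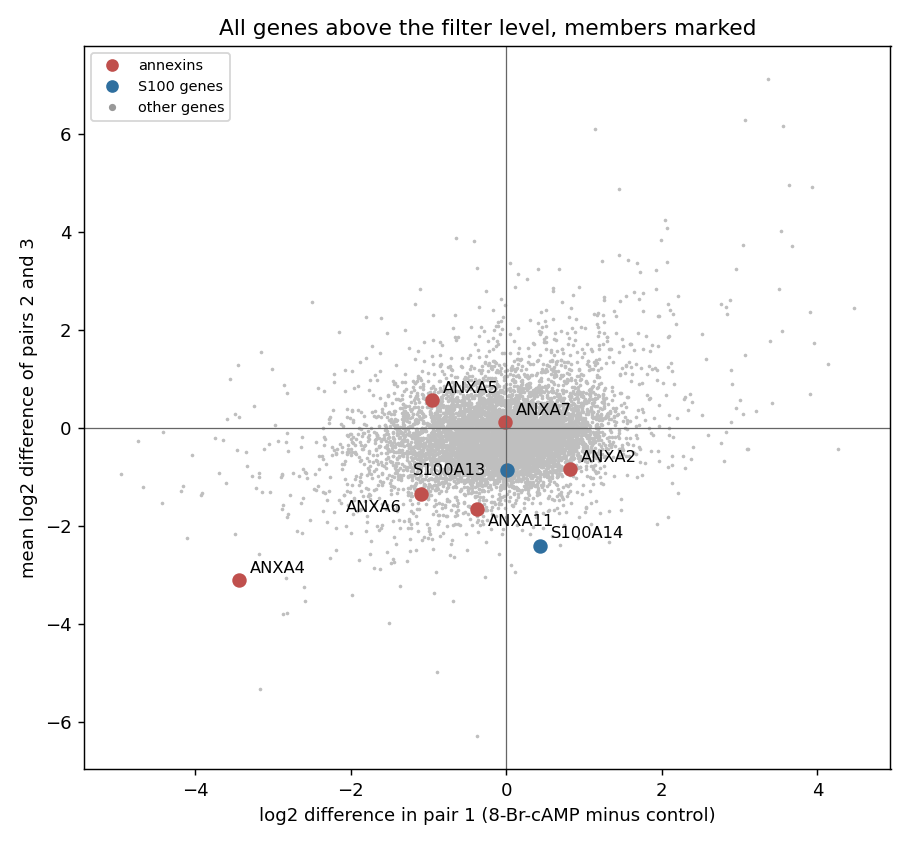
Log2 difference (8-Br-cAMP minus control) in pair 1 (x axis) against the mean of pairs 2 and 3 (y axis) for the 7927 kept genes (grey), with annexins in red and S100 genes in blue. ANXA4 lies at the lower left edge of the cloud in both directions, ANXA5 has opposite signs on the axes, and S100A14 is far below 0 only on the y axis.

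The series' design text kept transcripts with a change of 2-fold or more and p under 0.05, unadjusted. By that selection, without a block, ANXA4 was lower and 0 members were higher, where 4.38% of kept genes were lower and 2.64% higher. S100A14 also met both limits, but its place in the test came from its control signals, and no result is drawn from it.

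On chromosome 1, 14 of the 17 S100 genes lie in 1 stretch that also holds the genes of the epidermal envelope. In the RefSeq order of protein-coding genes, S100A14 and S100A13, the pair above the filter level, are neighbours, and S100A1, which was dim, follows them. S100A10 and S100A11 open the stretch, and the small proline-rich genes stand between these and S100A9. Of the list of S100-fused and epidermal genes there, 11 were on the array and 4 kept (SPRR1A, SPRR1B, SPRR2B and SPRR3). All 4 rose in the paired fit, which called 1.73% of all kept genes higher, and treated arrays lay above all controls in 6.32% of kept genes. SPRR1B, a cornified envelope precursor, had 7008.6, 1790.3 and 1785 on the 8-Br-cAMP arrays, against 460.8, 67.6 and 51.5 on the control arrays. Its groups did not overlap, at a log2 difference of 4.59 (SE 0.27, limma's paired adjusted p = 0.00679), and SPRR3 differed by 4.51 (SE 0.33, limma's paired adjusted p = 0.00679). Without the block these were 0.132 and 0.0511, and 0 of the 4 genes passed. Filaggrin and trichohyalin (FLG and TCHH), which carry an S100 domain, were below the filter.

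Few partners and other calcium binders passed the paired fit, in which 1.73% of all kept genes rose and 1.96% fell. Of 26 kept genes that bind annexins or S100 proteins, or serve as their receptors, 1 was higher, 0 lower and 25 did not pass the paired fit. The one was KCNK3, the TASK potassium channel that sets the resting potential of adrenocortical cells and whose transport to the surface has been tied to S100A10. Its signal was 2728.2, 1358.7 and 1325.5 on the 8-Br-cAMP arrays, against 806.8, 251.8 and 261 on the control arrays. All treated arrays were above all controls, and the log2 difference was 2.18 (SE 0.22, limma's paired adjusted p = 0.0109, and 0.187 without the block).

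Among 32 kept genes of other EF-hand proteins, the fold that S100 proteins share with calmodulin, 0 were higher and 1 lower. It was CALML4, a calmodulin-like protein, with 45.9, 72.2 and 95.2 on the 8-Br-cAMP arrays, against 296.1, 306.1 and 414.4 on the control arrays. The groups did not overlap, and the log2 difference was -2.30 (SE 0.25, limma's paired adjusted p = 0.0131, and 0.091 without the block).

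Among 17 kept genes with C2 domains, the other main calcium-dependent membrane anchor, 1 was higher and 0 lower. It was SYTL2, a synaptotagmin-like protein of vesicle traffic, with 147.8, 490.6 and 436.9 on the 8-Br-cAMP arrays, against 12.7, 136.2 and 100.7 on the control arrays. Each treated array was above each control, and the log2 difference was 2.50 (SE 0.37, limma's paired adjusted p = 0.0262, and 0.38 without the block). The median log2 difference was -0.23 for the partners, -0.22 for the EF-hand genes and -0.05 for the C2 genes, against -0.14 over all kept genes.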

How the data were processed

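RNA of 3 8-Br-cAMP and 3 control plates was hybridised to Affymetrix U133 oligonucleotide arrays. The deposited values are linear signal intensities, with 1 value for a probe set on an array. GCOS 1.3 computed them, per the labels' protocols, and the background step is not given in the sources used here. The 2% trimmed means of the 6 columns lay within 249.996 to 250.155, so no further normalization was applied. Such scaling fixes the total signal of an array. Precision is limited by how few arrays there are.

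Of 22277 probe sets 62 array controls were dropped. The platform annotation gave 1 symbol for 19064 of 22215, several for 1043, and 2108 were not listed. Gene IDs of all 28 members matched the RefSeq table. Signals were taken to log2, probe sets above the 40th percentile of the mean were kept (13329), and limma 3.58.1 under R 4.3.3 fitted the differences (lmFit, eBayes with trend), two-sided, threshold 0.05. Tables were made with Python 3.11.15. The fitting code was also run on simulated arrays, built with the sample number as a block. That run checks the code only, and no call here rests on it.

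The fit planned first had no block. Across kept probe sets, deviations from the group mean correlated between arrays of 1 number at 0.603 (number 1), 0.378 (number 2) and 0.538 (number 3), all over the 0.1 required, and samples were treated as paired. The labels number the samples but state no pairing. Mismatched arrays met the same limit, with control 3 and 8-Br-cAMP 2 at 0.547 and control 2 and 8-Br-cAMP 3 at 0.312. Since the number 1 arrays stood apart in both groups, arrays 2 and 3 deviate together however they are matched. The check thus sets number 1 apart but cannot tell numbers 2 and 3 from each other, and their pairing is an assumption. Members, lists and tests were chosen with earlier results of these data known.

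Values on every array are given for members that passed either fit, that showed no overlap with a difference of at least 1 and a group mean above the filter level, or that were among the 3 brightest of a family, and for the other kept members. From each further list the 2 passing genes with the smallest paired p are named. Genes of cell type marker lists are named as examples. Alternatives covered normalization, filters, a floor, a pseudocount, variance models, the block, probe set choice and arrays left out.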

Additional observations from a re-analysis of the deposited data

How the results depend on the processing

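ANXA4 was lower in all 29 settings run, with log2 differences from -3.60 to -2.74, and passed in 9 of 9 processing alternatives combined with the replicate block (adjusted p 0.00284 to 0.0356). ANXA6 was lower in all 29 (-1.83 to -0.78) and passed in 6 of 9 with the block, but not with quantile normalization, a common median or eBayes without a trend (adjusted p = 0.0617, 0.0799 and 0.0716). Without the block, ANXA4 passed in 1 of 9 processing alternatives (limma's adjusted p 0.0257 to 0.144) and ANXA6 in 0 of 9 (0.446 to 0.668). Scaling moved the median over kept probe sets, at -0.13 for deposited values, -0.03 with quantile normalization and 0.09 with a common median. ANXA11 and S100A13 kept their sign in every setting run. So did S100A14, but it was kept through its controls alone, so nothing is drawn from its sign.

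Signs turned for 3 members. ANXA5 had -0.11 with quantile normalization (with or without the block), -0.32, -0.30 and -0.18 without 8-Br-cAMP 2, 8-Br-cAMP 3 and control 1, and -0.22 and -0.17 without pair 2 and pair 3, within a range of -0.32 to 0.81 over arrays left out. ANXA7 had -0.10 with its probe sets averaged, and ANXA2 had 0.08 without 8-Br-cAMP 3 and 0.09 without pair 3, within -0.66 to 0.08 over arrays left out and -0.85 to 0.09 over pairs left out.

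Without a block, 0 annexins passed in the planned fit, 1 with probe sets averaged, 1 under the design text's selection, 4 without both number 1 arrays, and 0 to 4 with an array left out or, in the paired fit, a pair. The 2 of the paired fit became 1 with quantile normalization, a common median or no trend, and 3 under the design text's selection. For S100 genes, where S100A14 was kept through its controls alone, 0 became 2 without both number 1 arrays, 1 under that selection, and 0 to 2 with an array or pair left out. Over all probe sets 0 became 17 (quantile normalization, common median), 18 (stricter filter), 28 (floor, pseudocount of 16), 27 (probe sets averaged), 880 (design text's selection) and 4103 (without number 1 arrays), and 0 to 285 with an array left out. In the paired fit 4680 passed without pair 1, and fewer than its 428 without pair 2 or pair 3. With 8-Br-cAMP 1 left out 285 passed, with ANXA4 and ANXA11 among them, and with control 1 left out 58. The paired 428 became 337 (quantile), 142 (common median), 406 (no filter), 440 (stricter filter), 481 (floor), 548 (pseudocount), 81 (no trend), 408 (robust), 304 (averaged) and 1202 (selection). The causes were not tested. Combinations with the block were added after seeing the data, apart from the block alone and with a pair left out.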

Other observations

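Probe sets that carry 2 symbols or a pseudogene name were not members. The one shared by ANXA8 and ANXA8L1 had signals of 81.9, 88.4 and 86.4 on 8-Br-cAMP arrays, against 82.1, 131.1 and 110.8 on controls, with overlap between the groups (limma's paired adjusted p = 0.578). The one shared by ANXA2 and the spliceosome gene SNU13 had 2275.9, 2361.3 and 2460.7 on 8-Br-cAMP arrays, against 1404.1, 1954.8 and 2226.6 on controls. No treated array fell below a control there, and the log2 difference of 0.37 did not pass (limma's paired adjusted p = 0.323). Probe sets named for the ANXA2 pseudogenes ANXA2P1, ANXA2P2 and ANXA2P3 were below the filter level.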
